A study of Mus musculus with 6 samples.

Results

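The genes described here are 37 type I interferon-induced genes, chosen by symbol from a list of genes known to be switched on by interferon. All 37 were rows of the deposited table of 24410 gene symbols, and 34 of them were abundant enough to be tested, at 1 FPKM or more in at least 3 libraries (FPKM is a fragment count scaled to transcript length and library size). The 6 RNA libraries came from C57BL/6 mice aged 5 months. WT 1, WT 2 and WT 3 carried the wild-type gene, and KO 1, KO 2 and KO 3 were Txnip -/-, without the gene of the thioredoxin-interacting protein; the labels name no Cre or transgene. In both genotypes, marrow cells depleted of mature lineages were grown for 3 days in medium with 10% serum, stem cell factor (100 ng/mL) and thrombopoietin (20 ng/mL), and CD41+ cells were then sorted. The study's title concerns Txnip in the development of megakaryocytes and platelets. Whether mice were littermates, pooled or separate for each library is not given in the sources used here, so the p-values measure only the spread between these libraries, which may be partly technical.

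Type I interferons are secreted proteins that bind a receptor of the subunits IFNAR1 and IFNAR2. The kinases JAK1 and TYK2 then relay the signal, and the complex ISGF3, which holds STAT2 and IRF9, binds the interferon-stimulated response element in the promoters of the induced genes. Their products sense foreign RNA and DNA, block translation, degrade RNA, modify proteins with the ubiquitin-like ISG15 or hinder virus entry and release. Haematopoietic stem cells and megakaryocyte progenitors are known to respond to type I interferon, and many progenitor cells keep part of this programme on without infection.

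RefSeq promoter windows (build GRCm38.p6, 250 bases before to 50 after each gene's start) matched 28 of the 37 genes. Windows were searched on both strands for the core of the response element, GAAANNGAAA or its reverse complement TTTCNNTTTC. It was found for 12 of the 28 genes, or 42.9%, against 3.99% of all 27025 genes with a window of that length. A list of further interferon-induced genes outside the members had it in 29 of 59 genes, or 49.2%, so the letters are not particular to the members. A match is a description of letters, not a site shown to be bound. The 6 stretches printed next come from the promoters of Isg15, Ifit1, Ifit3 and Rsad2, whose KO-to-WT differences were among the 7 largest of the group, of Stat2, a component of ISGF3, and of Bst2, which carries the letters and hardly differed. Each lies before the annotated start, reads 5′ to 3′ on the gene's strand, and has the matches in capitals. Adjoining matches run together, with 3 for Isg15 and 2 for Bst2.
Isg15 (chr4:156200857-156200926, minus strand): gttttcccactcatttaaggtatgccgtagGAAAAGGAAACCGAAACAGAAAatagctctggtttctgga
Ifit1 (chr19:34640755-34640824, plus strand): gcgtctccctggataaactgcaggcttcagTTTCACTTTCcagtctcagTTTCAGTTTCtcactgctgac
Ifit3 (chr19:34583343-34583416, plus strand): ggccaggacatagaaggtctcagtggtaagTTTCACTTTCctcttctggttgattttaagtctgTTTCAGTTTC
Rsad2 (chr12:26456533-26456602, minus strand): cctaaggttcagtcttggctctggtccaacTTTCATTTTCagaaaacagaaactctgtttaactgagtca
Stat2 (chr10:128270248-128270315, plus strand): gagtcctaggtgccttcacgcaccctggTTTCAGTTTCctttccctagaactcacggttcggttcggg
Bst2 (chr8:71537563-71537632, minus strand): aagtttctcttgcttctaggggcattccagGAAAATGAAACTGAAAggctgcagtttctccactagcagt

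Several members are neighbours in the RefSeq gene order: Ifit2 and Ifit3 with Ifit1 close by on chromosome 19, Oas2 beside Oas3 on chromosome 5, Oasl2 beside Oasl1 on the same chromosome, Rsad2 beside Cmpk2 on chromosome 12, and Parp14 and Parp9 on chromosome 16 with Dtx3l between them. Adar lies on chromosome 3, as Txnip does, with 181 protein-coding genes between them. In the annotation, exons of Adar overlap those of Chrnb2 and exons of Parp9 overlap those of Dtx3l on opposite strands. Since the strand setting of the libraries is not given, reads of such partners cannot be told apart. Exons of Irf9 overlap those of Rnf31 by 123 nt on the same strand, where a strand setting would not part the reads either.

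The libraries matched their genotype labels. The WT libraries held Txnip at 112, 228 and 143 FPKM, whereas it was listed at 0, 0.04 and 0 in the KO libraries (−7.26 on the log2(FPKM + 1) scale, SE 0.28; limma, adjusted p = 2.02e-05). The megakaryocyte genes Itga2b, which encodes CD41, and Pf4 lay between 83.2 and 152 FPKM and between 465 and 1545 FPKM. Libraries of the same number resembled each other across genotypes, and number 3 held Xist (48.1 and 91.6 FPKM) where numbers 1 and 2 held the Y-linked Ddx3y (22.8 to 41.7 FPKM), so KO and WT libraries of a number are treated below as a pair. Depth is not stated in the file. The spacing of low values puts it near 13600000 fragments in KO 1, 17900000 to 18600000 in the WT libraries and 23600000 in KO 3, while KO 2 could not be resolved. KO 1 stood apart by the summed levels of immediate early genes and of a conventional dendritic cell list, as given below. Most of the latter sum came from MHC class II genes.

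In KO libraries most of these genes were higher, and none of them passed the threshold alone. The mean log2(FPKM + 1) was higher in KO for 35 of the 37 genes and lower for 2, Ifitm3 and Ifi35. Over all tested genes, 63.4% had a higher mean in KO. Of the 34 tested members 32 were higher, with a median difference of 0.36 on the log2(FPKM + 1) scale against 0.06 over all 11249 genes tested. With the 3 untested genes included the median was 0.34. The count of 32 became 33 with libraries rescaled to a common sum (median 0.53, against 0.22 over all genes). The FPKM sum was 1131641 in WT 2 against 715205 to 805730 in the other libraries, so that rescaling lowered the values of WT 2 most. It left 86.6% of all tested genes higher in KO. After quantile normalization the count was 30 (median 0.28, against 0.00), where 51.2% of all tested genes were higher. In 9 of the 34 tested members, or 26.5%, every KO library lay above every WT library, against 3.32% of all tested genes, and in 0 every KO library lay below, against 1.03%. The 9 were Isg15, Ifit1, Oasl1, Irf7, Rsad2, Dhx58, Isg20, Ifit2 and Ddx58. Of these, Oasl1 was tested through its KO libraries alone, being under 1 FPKM in each WT library, so a difference was built into its place among the tested genes. In bulk RNA, more cells of a type and more RNA per cell cannot be told apart.

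No member passed limma with adjustment over all tested genes: 0 of 34, where 0.00889% of all genes were called higher and 0.00889% lower, and the smallest adjusted p of a member was 1.0. At an unadjusted p under 0.05, 6 members were higher in KO (Isg15, Irf7, Ifit1, Oasl1, Rsad2 and Mx1), or 17.6% against 0.409% of all genes. That count was 1 without KO 1 and 2 without WT 3. With the replicate number as a block, which removes differences shared by a pair, again 0 members passed (smallest adjusted p = 0.349, Isg15; limma), and 0.0178% of all genes were called higher. The count at an unadjusted p under 0.05 was then 17 of 34, where 4.66% of all genes were higher at that level, and 0 members were lower, against 2.28%. Fits with the block on only 2 pairs leave 1 residual degree of freedom and called more genes over the whole table than the block on 3 pairs. Without pair 1, 0 members passed, and 0.08% of all genes were called higher and 0.24% lower. Without pair 2, 3 members passed as higher (Isg15, Irf7 and Mx1; limma, adjusted p = 0.00808, 0.011 and 0.0252), where 0.836% of all genes were called higher and 0.427% lower. Without pair 3, 2 members passed as higher (Isg15 and Rsad2; limma, adjusted p = 0.00015 and 0.021), where 0.604% were called higher and 0.444% lower. At an unadjusted p under 0.05 these fits had 3, 16 and 19 members higher, against 1.73%, 9.03% and 4.95% of all genes. The members were chosen with earlier results of these data known, so these shares describe them and do not test them.

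**Figure D1:**
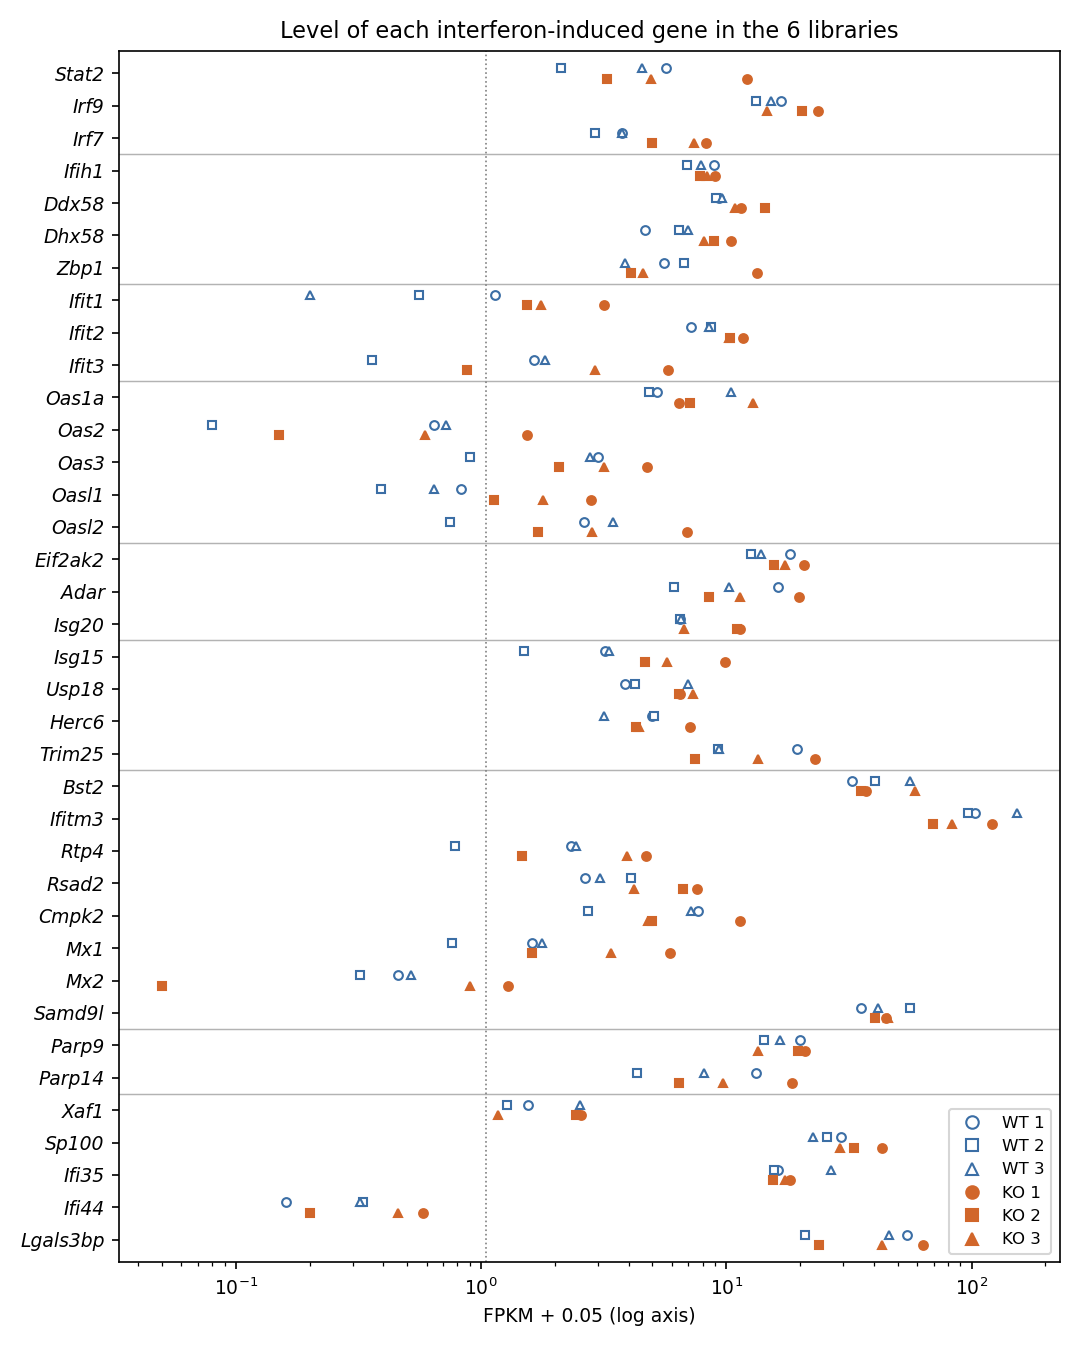
Level of each of the 37 genes as FPKM + 0.05 on a log axis, 1 row per gene, with WT libraries as open blue symbols, KO libraries as filled orange symbols, and circle, square and triangle for numbers 1, 2 and 3. Grey lines part the groups by role and the dotted line marks 1 FPKM. Filled symbols lie to the right of all open ones in 9 genes, among them Irf7, Ifit1 and Isg15.

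All 3 transcription factors, which drive the response and are themselves induced by it, had higher means in KO. Irf7, which amplifies interferon production and is itself a target of ISGF3, was at 3.69, 2.86 and 3.71 FPKM in WT and at 8.24, 4.94 and 7.31 in KO, given here and below in the order of library numbers. The lowest KO value stood above the highest WT value. Its difference was 0.81 (SE 0.26, 95% interval 0.21 to 1.41; limma, adjusted p = 1.0), higher in 3 of 3 pairs. Stat2, the subunit that gives ISGF3 its activating domain, was at 5.64, 2.07 and 4.48 FPKM in WT and at 12.15, 3.22 and 4.90 in KO. The groups overlapped, KO 1 stood far above the rest, and the pair differences ran from 0.11 to 0.99. Irf9, the DNA-binding subunit of ISGF3, was at 16.6, 13.2 and 15.2 FPKM in WT and at 23.7, 20.4 and 14.6 in KO. KO 1 and KO 2 were the highest libraries, while KO 3 lay below both WT 1 and WT 3.

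Among sensors of foreign nucleic acid, 2 of the 3 RNA helicases of the RIG-I family had KO libraries above all WT libraries. Dhx58, the regulatory helicase LGP2, was at 4.59, 6.38 and 6.92 FPKM in WT and at 10.4, 8.83 and 8.04 in KO, with no overlap. Its difference was 0.54 (SE 0.24; limma, adjusted p = 1.0). Ddx58, which encodes the sensor RIG-I, was at 9.30, 9.03 and 9.57 FPKM in WT and at 11.5, 14.3 and 10.8 in KO, also without overlap (difference 0.35, 95% interval −0.14 to 0.84). Ifih1, which encodes the long-RNA sensor MDA5, stayed within 6.87 to 8.96 FPKM over all 6 libraries, with a difference of 0.08 (95% interval −0.42 to 0.58) that became −0.02 after quantile normalization. Zbp1, a sensor of nucleic acid in the Z form that can start necroptosis, was at 5.53, 6.70 and 3.83 FPKM in WT and at 13.3, 4.03 and 4.51 in KO. KO 1 alone stood above all WT libraries, in pair 2 the difference was −0.61, and without KO 1 the mean difference turned from 0.24 to −0.245.

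The IFIT genes, whose proteins bind viral RNA and hinder its translation, had higher KO values in all 3 pairs for each of the 3 genes. Ifit1 was at 1.09, 0.51 and 0.15 FPKM in WT and at 3.11, 1.49 and 1.71 in KO. Every KO library was above every WT library, and the ratio of the KO mean to the WT mean was 3.61. The difference was 0.98 (SE 0.33, 95% interval 0.22 to 1.73; limma, adjusted p = 1.0). At the estimated depths these values stand on few reads, about 50, 24 and 7 fragments in WT 1 to WT 3 and about 106 and 101 in KO 1 and KO 3. Ifit2 was at 7.12, 8.62 and 8.49 FPKM in WT and at 11.6, 10.3 and 10.2 in KO, a narrow but complete separation (difference 0.37). Ifit3 ran from 0.31 to 1.78 FPKM in WT and from 0.83 to 5.71 in KO, with its lowest value of either genotype in library 2. Ifit3 has a near copy, Ifit3b, which lay between 0.08 and 1.14 FPKM, so the division of reads between them is uncertain.

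The OAS genes encode enzymes that make the messenger for RNase L, and the OAS-like genes encode relatives of these enzymes. Oasl1, a restrainer of Irf7 translation, was at 0.78, 0.34 and 0.59 FPKM in WT and at 2.76, 1.08 and 1.74 in KO, without overlap (difference 0.83, SE 0.30, 95% interval 0.14 to 1.53; limma, adjusted p = 1.0). Its neighbour Oasl2 was at 2.59, 0.70 and 3.4 FPKM in WT and at 6.86, 1.66 and 2.78 in KO. There KO 1 was the highest library and the difference turned to −0.22 in pair 3. Oas1a ran from 4.77 to 10.4 FPKM in WT and from 6.37 to 12.8 in KO, with its highest value in library 3 of each genotype. Oas3 ran from 0.85 to 2.95 FPKM and from 2.02 to 4.71. Both were higher in 3 of 3 pairs. Oas2 stayed at 1.49 FPKM or less and was not tested. Oas1a has close copies in its cluster, of which Oas1g reached 2.61 FPKM, so its values depend on how reads were shared.

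Of the remaining genes that act on RNA, Isg20, an exonuclease of single-stranded RNA, was at 6.40, 6.40 and 6.47 FPKM in WT and at 11.3, 11.1 and 6.65 in KO. The WT values were almost equal and KO 3 exceeded them by 0.03 on the log2 scale in its pair, so the separation rests on KO 1 and KO 2. Eif2ak2, the kinase PKR that halts translation on sensing double-stranded RNA, ran from 12.6 to 18.1 FPKM in WT and from 15.6 to 20.6 in KO. Adar, which edits adenosine in double-stranded RNA and so keeps self RNA from being sensed, ran from 6.08 to 16.3 FPKM and from 8.42 to 19.8. Each was higher in 3 of 3 pairs, with wide overlap between genotypes, and without KO 1 the mean difference of Adar turned from 0.27 to −0.04, as it did without WT 2 (−0.05).

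Isg15 had the largest difference of the group. This ubiquitin-like protein, attached to other proteins or secreted, was at 3.15, 1.45 and 3.27 FPKM in WT and at 9.84, 4.61 and 5.69 in KO. Each KO library lay above each WT library, and the ratio of means was 2.56. The difference was 1.08 (SE 0.34, 95% interval 0.29 to 1.86; limma, adjusted p = 1.0), higher in 3 of 3 pairs by 1.39, 1.2 and 0.65. These values stand on about 35, 16 and 35 fragments in WT 1 to WT 3 and about 81 in each of KO 1 and KO 3. Usp18, the protease that removes ISG15 and also dampens the receptor, ran from 3.81 to 6.91 FPKM in WT and from 6.37 to 7.24 in KO. It was higher in 3 of 3 pairs, though by 0.06 in pair 3. Herc6, the mouse ligase for ISG15, ran from 3.12 to 5.02 FPKM and from 4.25 to 7.04, and Trim25, a ubiquitin ligase that activates RIG-I, from 9.19 to 19.4 and from 7.42 to 22.8. In both, pair 2 was lower in KO, and without KO 1 the mean difference of Trim25 turned from 0.14 to −0.23.

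The membrane proteins and other effectors split by level. Rsad2, the radical enzyme viperin, was at 2.61, 4.03 and 3.01 FPKM in WT and at 7.55, 6.60 and 4.15 in KO. The groups were separated, but KO 3 lay just above WT 2 (difference 0.73, SE 0.28; limma, adjusted p = 1.0). Cmpk2, a mitochondrial nucleotide kinase and the neighbour of Rsad2, ran from 2.69 to 7.59 FPKM in WT and from 4.75 to 11.3 in KO. It was lower in KO in pair 3, and its mean difference turned from 0.24 to −0.12 without KO 1 and to −0.16 without WT 2. Mx1 ran from 0.71 to 1.73 FPKM in WT and from 1.56 to 5.83 in KO, and was higher in 3 of 3 pairs with a mean difference of 0.89, which was 0.54 without KO 1. Mx1 and Mx2 encode dynamin-like antiviral GTPases, and C57BL/6 mice are known to carry a defective Mx1 gene. Mx2 lay at 1.24 FPKM or less, was listed at 0 in KO 2 and was not tested. Rtp4, a receptor-transporting protein, ran from 0.73 to 2.38 FPKM and from 1.42 to 4.66, higher in 3 of 3 pairs.

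The 4 most abundant members overlapped between genotypes. Ifitm3, which blocks fusion of viruses in endosomes, had the highest level of the group, at 103, 96.2 and 153 FPKM in WT and at 121, 69.5 and 83.2 in KO. The groups overlapped, KO 1 was above WT 1, and KO 2 and KO 3 were the lowest of all libraries (difference −0.37, 95% interval −0.998 to 0.26). That difference was −0.59 without KO 1, −0.20 without KO 2 and −0.165 without WT 3. Bst2, the tether that holds virions at the cell surface, was at 32.4, 40.3 and 56.3 FPKM in WT and at 36.99, 35.4 and 58.7 in KO, so only library 2 was lower in KO. Samd9l, which restrains cell growth and translation in myeloid cells, was at 35.3, 56.3 and 41.4 FPKM in WT and at 44.9, 40.5 and 45.5 in KO. Their differences were 0.02 (95% interval −0.62 to 0.66) and 0.00 (95% interval −0.51 to 0.51), intervals that still hold a change of the size seen for Ddx58. Lgals3bp, a secreted glycoprotein, was at 54.6, 20.98 and 45.9 FPKM in WT and at 63.4, 23.8 and 43.3 in KO, where library 2 was lowest and the genotypes lay close; its difference turned from 0.10 to −0.22 without KO 1 and to −0.30 without WT 2.

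Of the last members, Sp100, a protein of nuclear bodies, ran from 22.5 to 29.2 FPKM in WT and from 29.0 to 43.2 in KO, with KO 3 just below WT 1, and was higher in 3 of 3 pairs (difference 0.42, and 0.26 without KO 1). Ifi35, a leucine zipper protein, was at 16.1, 15.6 and 26.6 FPKM in WT and at 18.1, 15.5 and 17.3 in KO, where WT 3 stood above the rest. Its difference of −0.15 became 0.09 without WT 3 and 0.02 with libraries rescaled to a common sum. Xaf1, a proapoptotic partner of XIAP, was at 1.51, 1.22 and 2.49 FPKM in WT and at 2.50, 2.40 and 1.12 in KO, so pairs 1 and 2 were higher in KO and pair 3 lower. Parp9 and Parp14, ADP-ribosyltransferase family members, ran from 14.2 to 20.0 and from 4.29 to 13.2 FPKM in WT and from 13.4 to 20.9 and from 6.35 to 18.4 in KO. Parp14 was higher in 3 of 3 pairs. Parp9 was higher in 2 of 3, with a difference of 0.07 that became −0.0014 after quantile normalization and −0.04 without KO 1. Ifi44, a cytoplasmic induced protein, stayed at 0.53 FPKM or less and was not tested.

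**Figure D2:**
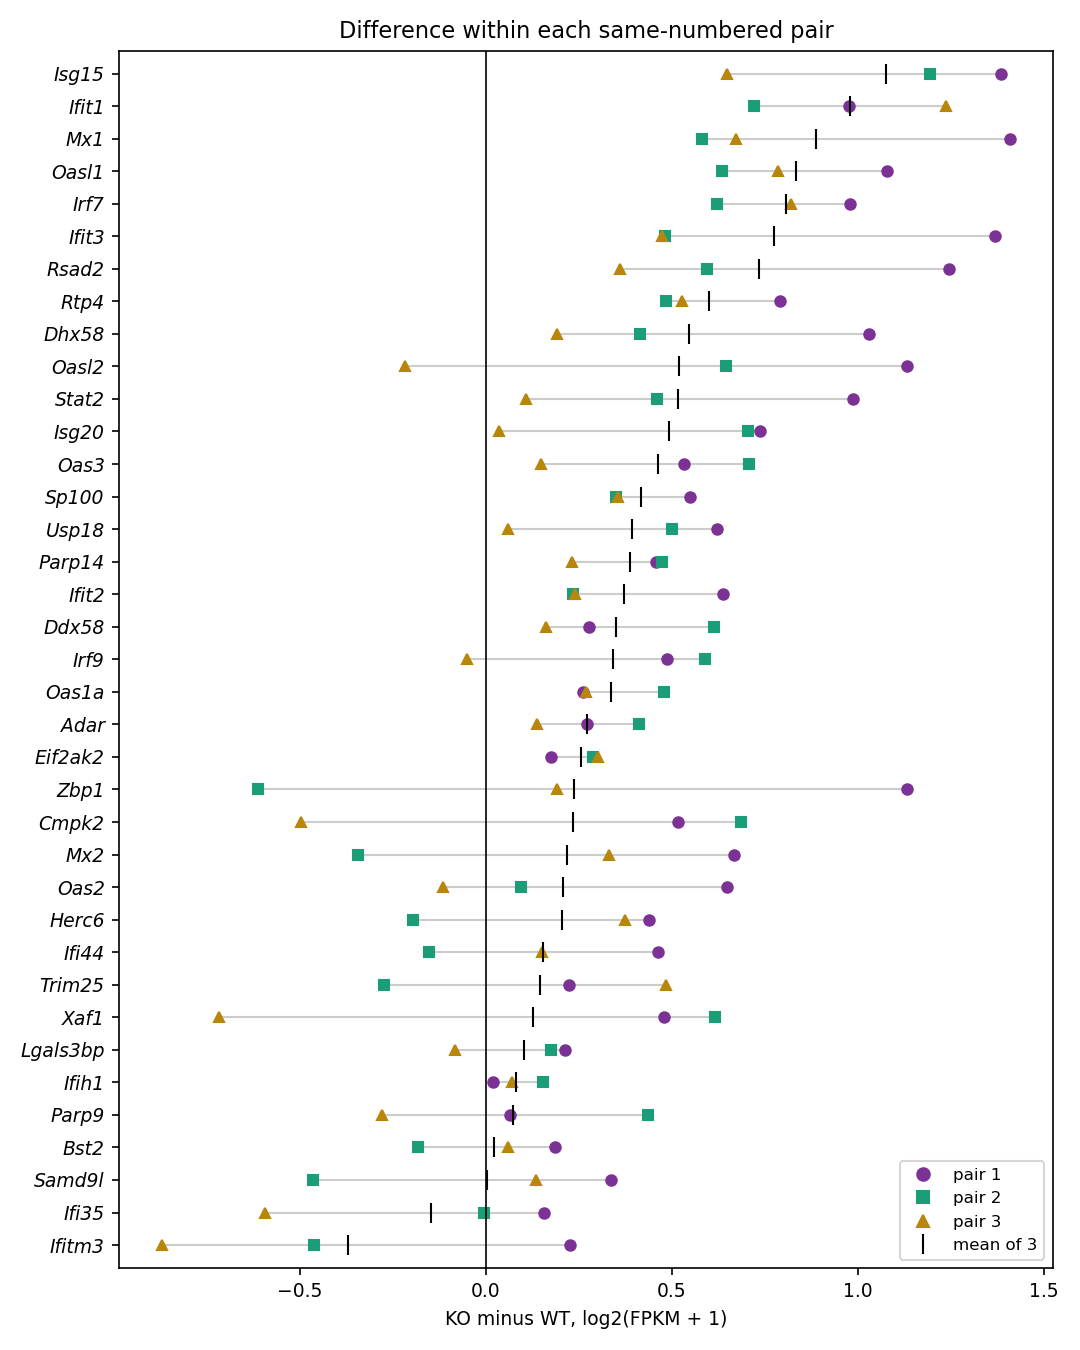
KO minus WT on the log2(FPKM + 1) scale for each of the 37 genes, sorted by the mean (black tick), with 1 symbol for each same-numbered pair and a grey line over their range. Pair 1, the purple circles, is above 0 in all 37 genes, whereas pairs 2 and 3 are each below 0 in 9.

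Differences were larger among the less abundant members. The 22 tested members with a mean under 10 FPKM over all libraries were all higher in KO, with a median difference of 0.50 and 17 of them higher in 3 of 3 pairs. Of the 12 at 10 FPKM or more, 10 were higher, with a median of 0.12 and 4 higher in 3 of 3 pairs. Over all tested genes the medians were 0.12 and 0.03, with 71.2% and 58.3% higher. The boundary of 10 FPKM was set after the values were seen.

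The pairs differed in size. In pair 1 all 37 members were higher in KO, with a median of 0.52 over the tested members, where 55.3% of all tested genes were higher (median 0.04). In pair 2, 27 of 34 tested members were higher (median 0.48, against 0.09 over all genes), where 58.8% of all genes were higher. In pair 3, 26 of 34 were higher (median 0.18, against 0.05), where 57.8% of all genes were. Over the 3 pairs, 21 of 34 members, or 61.8%, were higher in each, against 20.4% of all genes, and 0 were lower in each, against 8.68%. The shift of pair 3 was the smallest, and in it Irf9, Oasl2, Cmpk2, Parp9, Xaf1, Ifi35, Ifitm3 and Lgals3bp were lower in KO. Pair 3 was also the only pair that held Xist (48.1 and 91.6 FPKM) and had Ddx3y at 0. With 1 such pair, sex and other traits of the pair cannot be told apart, and their part in its shift was not tested.

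**Figure D3:**
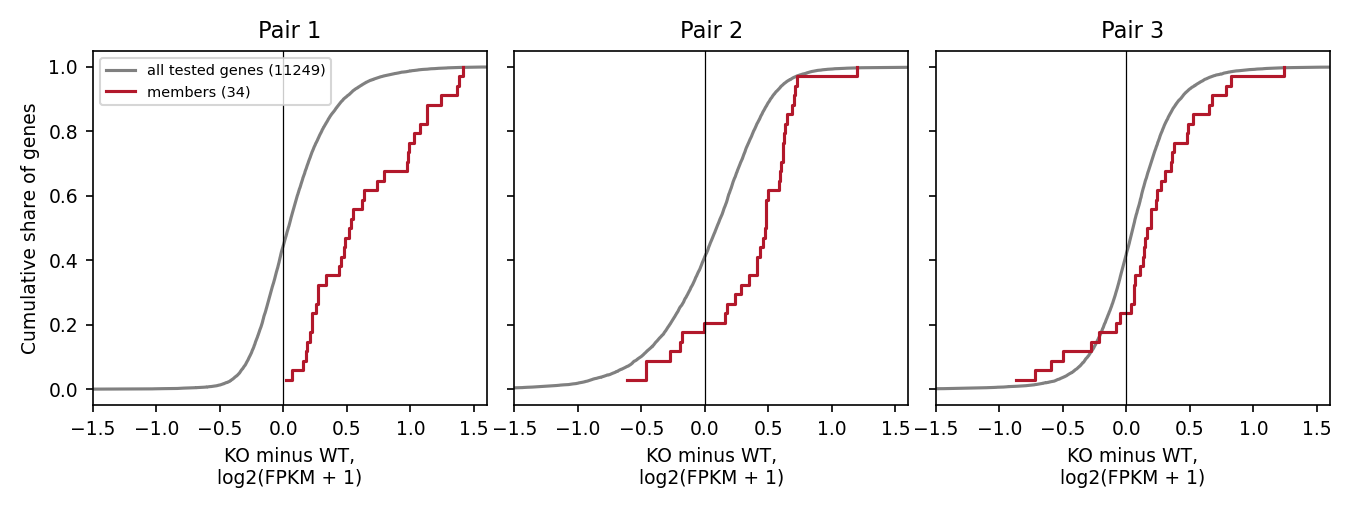
Cumulative share of genes by KO minus WT difference on the log2(FPKM + 1) scale, 1 panel per pair, with the 34 tested members in red and all 11249 tested genes in grey. The red curve lies right of the grey one over most of its length in pairs 1 and 2, and nearer to it in pair 3, where the medians are 0.18 and 0.05.

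Within a genotype, library 2 often held the lowest level. In 17 of 34 tested members library 2 was lowest in both genotypes, against 31.1% of all tested genes, while library 1 was lowest in both for 0 (19.8% of all) and library 3 for 1 (9.35% of all). Among the 17 were Stat2, Isg15, Irf7, Oasl2, Parp14, Adar and Lgals3bp. KO 2 was thus below WT 1 and WT 3 for Stat2, Oasl2 and Lgals3bp. The short RNAs Rpph1 and Rmrp took 30.4% of the FPKM sum in WT 2, against 10.7% to 20.6% elsewhere, and ribosomal protein genes took 26.7% in KO 2, against 13.8% to 22.3% elsewhere; the part of either in these levels was not tested.

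The group's difference was smaller without KO 1. In that case 24 of 34 members were higher, with a median of 0.17 against 0.01 over all genes (51.6% of which were higher). Without WT 2 the count was also 24, with a median of 0.23 against 0.01 over all genes (51.5% of which were higher). With the replicate block and without pair 1, 28 of 34 were higher, where 62.9% of all genes were. The medians were 0.28 and 0.07. In both pairs 2 and 3, 21 members were higher, and the share of all genes that were was not counted. Leaving out KO 1 moved the difference of 23 of the 34 members by over 1.5 times, and leaving out WT 2 that of 19. Stat2 went from 0.52 to 0.05 without KO 1 and 0.19 without WT 2, and Parp14 from 0.39 to 0.0080 and 0.02. The 9 members with separated groups moved by less than 1.5 times whichever library was left out. They were picked by their separation in these same libraries, which favours small moves, so this is no separate support for them. Markers of several other cells were also higher in KO 1 than in WT 1. Over 16 monocyte and macrophage markers, 15 were higher in KO (median 0.39), with pair medians of 0.95, 0.19 and 0.01, and their summed level ran from 864 to 2066 FPKM in WT and from 1322 to 1994 in KO, with none at 0 in every library. KO 1 was the highest library for 8 of the 16, and its sum of 1624 FPKM lay below those of WT 3 (2066) and KO 3 (1994), while WT 1 had the lowest sum. Lyz2 made up most of these sums, from 522 FPKM in WT 1 to 1533 in WT 3. At an unadjusted p under 0.05 (limma), 0 of these 16 markers were higher in KO, and 8 with the block. The shares of all genes were 0.409% and 4.66%. The members had 17 of 34 higher at that level with the block, so such a share is not particular to them. Over the 6 tested of 10 conventional dendritic cell markers, 4 of which (H2-Ab1, H2-Aa, H2-Eb1 and Cd74) belong to MHC class II presentation, the pair medians were 1.29, 0.58 and −0.21, and the summed level of all 10 was 1261 FPKM in KO 1 against 318 to 495 elsewhere. The MHC class II genes H2-Ab1, H2-Aa, H2-Eb1 and Cd74 were at 250, 304, 144 and 540 FPKM in KO 1 and made up most of its sum. The defining markers Zbtb46, Clec9a and Xcr1 were at most 2.92, 1.87 and 0.89 FPKM, each highest in KO 1. The 15 immediate early genes, which respond to handling and other stimulation, were all higher in KO (median 0.29), with pair medians of 0.59, 0.05 and 0.10 and a sum of 870.3 FPKM in KO 1 against 279.9 to 529 elsewhere. The part of these in the members' values was not tested. Plasmacytoid dendritic cells are known as strong producers of type I interferon. Of their 10 markers Siglech was at 1.82 FPKM or less and Ccr9 at 2.33 or less, both highest in KO 1. Klk1 and Pacsin1 stayed under 1 FPKM, and Spib and Ly6d reached 1.89 and 3.48. Il3ra, Runx2, Tcf4 and Cox6a2 reached 19.5, 15.0, 13.5 and 12.0 FPKM. The 10 summed to 32.9 to 46.6 FPKM in WT and 36.2 to 60.0 in KO, and KO 1 was the highest library for 8 of them. Of 5 tested, 4 were higher in KO and 1 lower (median 0.12), with pair medians of 0.40, −0.16 and 0.14. The 10 megakaryocyte markers split 4 higher to 6 lower (median −0.02). Of 10 neutrophil markers 8 were tested, with 4 higher and 4 lower (median −0.006). The neutrophil sum was lowest in KO 1 (1555 FPKM) and highest in KO 3 (4300 FPKM). Markers of erythroid cells and of mast cells and basophils were mostly lower in KO, in 6 of 7 tested (median −0.34) and 8 of 10 (median −0.20). Their sums ran from 134 to 161 FPKM in WT and 110.2 to 120.4 in KO for the erythroid list, without overlap, and from 1088 to 1628 and 679 to 1479 for the mast cell list. Tfrc was the largest part of each erythroid sum, and it overlapped, at 86.3 to 88.8 FPKM in WT and 50.9 to 94.5 in KO. No marker of these lists passed limma with or without the block, and their part in the members' values was not tested.

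**Figure D4:**
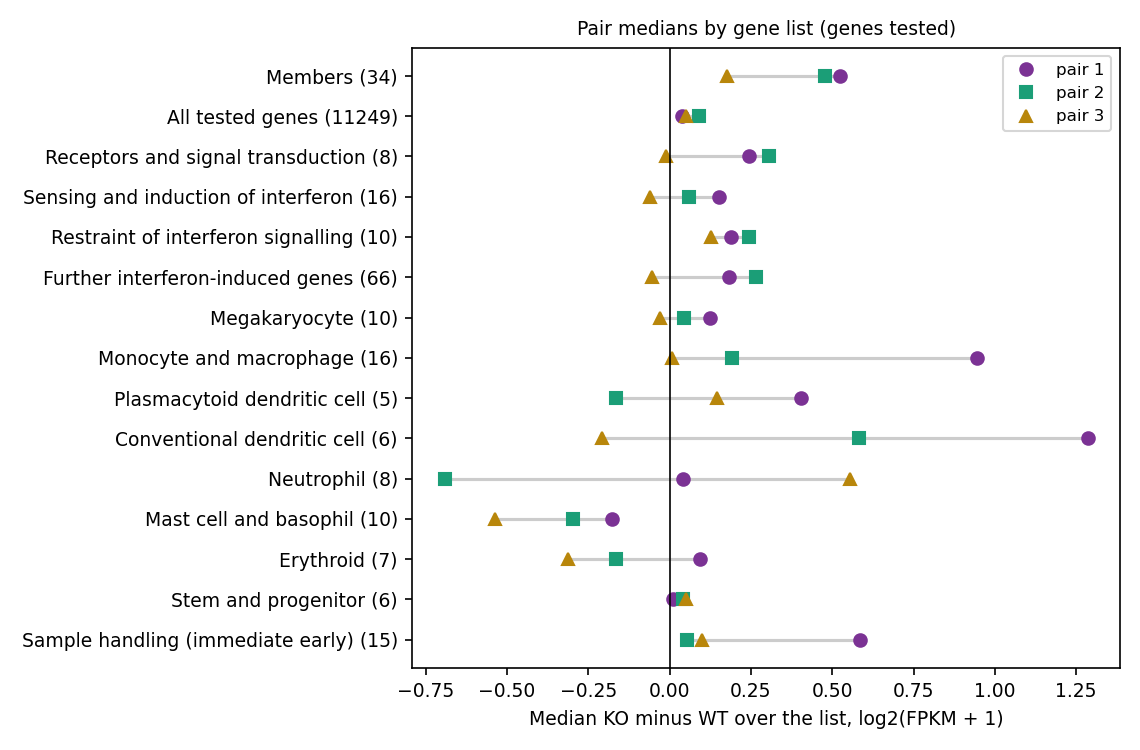
Median KO minus WT difference on the log2(FPKM + 1) scale over the tested genes of each list, 1 symbol per pair, with the number of genes in parentheses. The members are above 0.1 in each pair, the monocyte, conventional dendritic cell and immediate early lists lie furthest right in pair 1, and all tested genes stay near 0.

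Interferon transcripts themselves were scarce. Of 21 interferon genes 17 were listed at 0 in all 6 libraries, among them Ifnb1, and the other 4 (Ifna13, Ifnk, Ifnz and Ifng) stayed at 0.66 FPKM or less. None could be tested. The receptors and their kinases were present: Ifnar2 was at 43.7, 53.5 and 42.8 FPKM in WT and at 56.2, 80.7 and 43.3 in KO, and Ifnar1 at 13.5, 10.4 and 12.0 and at 17.7, 12.9 and 12.9. Tyk2 ran from 16.3 to 19.7 FPKM in WT and from 18.0 to 24.7 in KO, and the interferon gamma receptor gene Ifngr1 from 91.0 to 108 and from 87.8 to 135. All 8 genes of this list had a higher mean in KO, with a median of 0.19, 0 passed the threshold (limma) and 0 had an unadjusted p under 0.05, with or without the block.

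Genes that sense nucleic acid or relay the signal to interferon genes were spread around 0. Of 16 tested, 9 were higher and 7 lower (median 0.09), and 0 passed limma with or without the block. At an unadjusted p under 0.05 (limma) there were 0, and 1 higher with the block. A count of 1 in 16 is close to the 4.66% of all genes higher at that level with the block. The gene was Samhd1, which degrades deoxynucleotides, at 30.9, 22.8 and 25.8 FPKM in WT and at 53.0, 33.3 and 28.1 in KO. Rnaseh2b, a subunit of the enzyme that removes ribonucleotides from DNA, had each KO library (30.4 to 32.3 FPKM) below each WT library (34.5 to 37.2). It was the only 1 of the 16 to lie so, against 1.03% of all genes, and 0 lay above, against 3.32%. The DNA exonuclease Trex1 ran from 18.1 to 26.8 FPKM in WT and from 19.7 to 28.9 in KO, and the factor Irf3 from 15.4 to 21.4 and from 20.2 to 23.7. Of the 10 genes that restrain interferon signalling 7 were higher and 3 lower (median 0.12), with 0 called by limma and 0 at an unadjusted p under 0.05, with or without the block. Nlrx1, Socs3, Socs1 and Pias1 had the smallest p of this list. Socs3, a feedback inhibitor of JAK kinases, was at 6.06, 10.7 and 5.14 FPKM in WT and at 7.21, 13.6 and 7.35 in KO, higher in 3 of 3 pairs. Socs1, its relative, ran from 0.35 to 2.46 and from 0.93 to 3.68, the mitochondrial Nlrx1 from 3.71 to 4.90 and from 4.53 to 5.93, and the SUMO ligase Pias1 from 8.20 to 14.9 and from 9.81 to 16.1.

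A longer list of 75 further interferon-induced genes, many of them also induced by interferon gamma, shared the direction less fully. Of 66 tested, 52 were higher and 14 lower, with a median of 0.14 and pair medians of 0.18, 0.27 and −0.05, and without KO 1 the median turned to −0.04. Limma called 0 with or without the block. At an unadjusted p under 0.05, 1 gene was higher (Ifi205) and 1 lower (Ifitm1). With the block these counts became 11 and 3. Over all genes tested the shares were 0.409% and 0.267% without the block and 4.66% and 2.28% with it. The medians of the members were the larger in each pair, a difference for which no test was made. Ifitm1, next to Ifitm3 and of the same family, was at 265, 465 and 471 FPKM in WT and at 218, 299 and 193 in KO, and each pair was lower in KO (difference −0.73, SE 0.30; limma, adjusted p = 1.0). In 5 of the 66 genes every KO library lay above every WT library (Ifi30, Slfn8, Trim30a, Phf11b and Uba7), and in 2 every KO library lay below (Ifi47 and Ifitm2), against 3.32% and 1.03% of all genes. Ifi47, a GTPase that is mainly induced by interferon gamma, was at 97.1, 81.2 and 88.4 FPKM in WT and at 72.1, 69.5 and 61.7 in KO, without overlap. Slfn8, a Schlafen gene, went the other way, at 6.20, 2.85 and 6.71 FPKM in WT and at 11.2, 6.82 and 8.43 in KO, as did the DNA sensor family gene Ifi205, at 1.54, 1.99 and 3.91 and at 6.32, 3.61 and 4.35.

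Members with and without the response element letters overlapped in their differences. The 12 tested members with GAAANNGAAA or its reverse complement had a median difference of 0.41, from −0.37 (Ifitm3) to 1.08 (Isg15), and 11 were higher in KO. The 15 with a window but no match had a median of 0.27, from −0.15 (Ifi35) to 0.83 (Oasl1), and 14 were higher. Over all tested genes with a window the medians were 0.08 with and 0.06 without the letters. The stretches of Isg15 and Bst2 printed above both hold adjoining copies, and their differences were 1.08 and 0.02. Irf7 and Oasl1, with differences of 0.81 and 0.83, had no match in these windows, which says only that these letters are not in them.

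**Figure D5:**
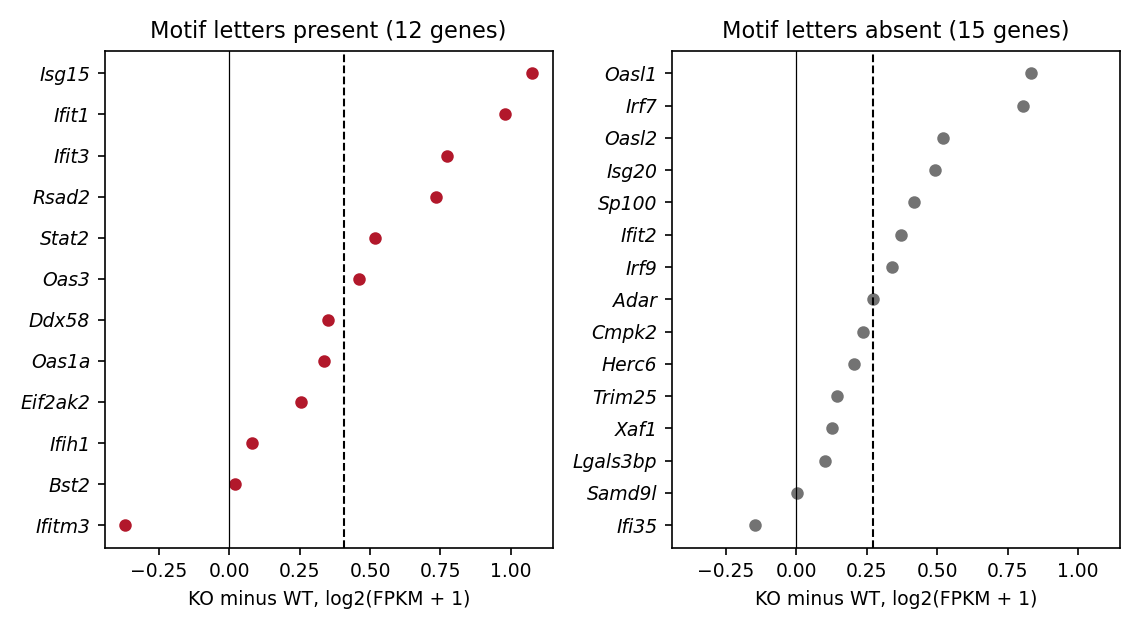
KO minus WT on the log2(FPKM + 1) scale for the 27 tested members with a promoter window, with the response element letters (left, 12 genes) and without them (right, 15 genes); dashed lines are medians, 0.41 and 0.27. The ranges of the panels overlap over most of their length.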

How the data were processed

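The deposited values are FPKM per gene symbol and library. The submitters' processing notes list build mm9, RSEM 1.2.31, STAR 2.7.0a, Trimmomatic 0.39 and FastQC; what the authors did with each, the annotation and the strand setting were not stated in the labels used here. RSEM shares reads between similar transcripts by estimation, and 7372 of 24410 symbols were 0 in every library. Sample titles gave groups and numbers. KO was compared with WT on log2(FPKM + 1) by limma 3.58.1 (R 4.3.3, eBayes with trend, two-sided). It covered the 11249 genes that reached 1 FPKM in at least 3 libraries, and Benjamini-Hochberg adjustment ran over all of them and a threshold of 0.05. The script was tested on simulated data. A difference on this scale understates changes of low genes. Numbers were taken to pair the libraries because same-numbered libraries deviated together from their group means across genes, with r of 0.81, 0.59 and 0.38 for numbers 1, 2 and 3, all over 0.1; the meaning of a number is not stated in the labels. Depth was estimated by how far apart low values lie in single-transcript genes, with GENCODE lengths on GRCm38 and thus approximate; no interval was computed from it. The members and lists were chosen with earlier results of these data known. Values in every library are given for Stat2, Irf9, Irf7, members whose groups did not overlap, the 4 most abundant, those lower in KO and the 3 with the widest spread between pairs; other members are given by range, and each pathway list adds its 4 genes of smallest p. Alternatives were another pseudocount (0.1), no filter, rescaling to a common sum, quantile normalization, the block, and leaving out libraries or pairs.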

Additional observations from a re-analysis of the deposited data

How the results depend on the processing

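No library totals were given, so depth limits the genes of few fragments most, and KO 2 has no estimate. With adjustment over all genes limma called 0 members under another pseudocount, no filter, either rescaling, the replicate block, and with any 1 library left out. Of the 34 tested members 23 kept their direction throughout; 11 reversed somewhere, and the cause was not tested. Rescaling to a common sum turned Ifi35 to 0.0189, and quantile normalization, with or without the block, turned Ifih1 to −0.0205 and Parp9 to −0.00143. Over all genes, calls of higher genes numbered 0 with no filter on low values and 2 with the block (2 also with quantile normalization), against 1. The block gave 17 members at an unadjusted p under 0.05, and 11 with quantile normalization (4.66% and 2.28% of all genes), against 6 (0.409%); it changed no other member count.

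The pathway lists of receptors, sensing, restraint and further induced genes hold 8, 16, 10 and 66 tested genes. The block without 1 pair leaves 1 residual degree of freedom. It called 0.08%, 0.836% and 0.604% of all genes higher without pairs 1, 2 and 3, in that order, and 0.24%, 0.427% and 0.444% lower. Over all genes, 1.73%, 9.03% and 4.95% were higher in KO at an unadjusted p under 0.05 (limma) without pairs 1, 2 and 3, in that order. Without pair 1 it called 9 genes higher and 27 lower, 0 members and 1 gene of the pathway lists, with 3 members at an unadjusted p under 0.05; Zbp1 turned to −0.21, Bst2 to −0.062, Samd9l to −0.17 and Xaf1 to −0.052. Without pair 2 it called 94 higher and 48 lower, 3 members and 3 pathway genes, with 16 members at an unadjusted p under 0.05; Parp9 turned to −0.11 and Xaf1 to −0.12. Without pair 3 it called 68 higher and 50 lower, 2 members and 5 pathway genes, with 19 members at an unadjusted p under 0.05; Trim25 turned to −0.026, Samd9l to −0.065 and Ifi35 to 0.075.

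With 1 library left out, genes called numbered 0 to 1 higher and 1 to 2 lower. Members at an unadjusted p under 0.05 numbered from 1 (without KO 1) to 7 (without KO 2). The median of the further interferon-induced genes ran from −0.041 (without KO 1) to 0.27. Member differences ran from −0.000516 to 0.16 for Ifih1, −0.245 to 0.51 for Zbp1, −0.052 to 0.59 for Adar, −0.23 to 0.52 for Trim25, −0.21 to 0.23 for Bst2, −0.16 to 0.45 for Cmpk2, −0.14 to 0.18 for Samd9l, −0.042 to 0.26 for Parp9, −0.013 to 0.36 for Xaf1, −0.28 to 0.090 for Ifi35 and −0.30 to 0.47 for Lgals3bp.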
